A study of Mus musculus with 4 samples.

Results

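The 92 genes described here were close to silent in MC38 cells given PBS and stood at 3 FPKM or more in both libraries of cells given 5-fluorouracil (5-FU). They were taken from the 36445 rows of the deposited expression table. FPKM is a level scaled to transcript length and to library size, so levels of different genes can be set side by side. A row was a member when the mean of the 2 PBS libraries was under 1 FPKM and each of the 2 5-FU libraries reached 3 FPKM. Names beginning with Snor, Hist or mt-, names containing -ps, and Tgtp2, Ifit3b and Gm4951 were left out, which removed 4 rows past both thresholds (Ifit3b, Tgtp2, Snord111 and Hba-ps4). Of the 24159 near-silent rows whose names were allowed, 0.381% reached the rule. In the opposite direction, 160 of 24415 rows with a mean under 1 FPKM after 5-FU held at least 3 FPKM in both PBS libraries (0.655%). The members were thus chosen by their FPKM values in these same 4 libraries, so their difference between treatments is a description and carries no test.

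MC38 is an established mouse colon cancer line. The control group received PBS and the treated group 5-FU at 1 mM, both for 24 h, in serum-containing DMEM with antibiotics and glutamine. Each group held 2 libraries made by poly(A) selection from TRIzol-extracted total RNA. The labels do not say whether the replicates were separate cultures, so the spread between them may be technical.

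Genes of other tissues are mostly kept silent in a cell line, and they can become detectable either from their own start site or as part of RNA that began elsewhere. RNA polymerase II does not stop at the annotated end of a gene: the transcript is cut at a poly(A) signal and the polymerase runs on until it is released. When cutting or release fails, RNA can extend into the next gene on the same strand, and sequencing reads from that RNA are counted for the downstream gene. The drug 5-FU is a fluorinated uracil that cells convert to nucleotides, which starve DNA synthesis of thymidylate and are also built into RNA.

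Depth, estimated from the commonest small step between FPKM values, was 41.3 M reads in the first PBS library and 41.7 M in the second. The same estimate gave 20.8 M in the first 5-FU library and 20.6 M in the second. Some 5-FU values nevertheless lay on the PBS step, as for Mb (0.0384 FPKM in PBS replicate 2, 0.0384 and 0.0387 FPKM in 5-FU). The size of 1 read in the 5-FU libraries is therefore uncertain. Whether the 5-FU libraries were shallower was not tested, and estimated reads of the 2 groups may be in different units. All 14 epithelial markers measured, among them Epcam, Krt8 and Cdx2, were near-silent in PBS, with summed levels of 0.878 to 2.47 FPKM per library. On a mesenchymal list, 4 of 11 markers, among them Col1a2 and Thy1, were also near-silent in PBS. Vim and Fn1 led that list, whose sums were 1349 to 1593 FPKM. Of 13 leukocyte markers, 12 were near-silent in PBS and Cd3e and Ms4a1 were at 0 in all libraries, while Lyz2 held 1.57 and 3.19 FPKM in PBS and 2.43 and 2.64 FPKM in 5-FU. Of 9 endothelial and erythroid markers, 8 were near-silent. The sums over all 9 were 1.99 to 3.81 FPKM, most of which came from Hba-a1 (2.50 and 1.60 FPKM in PBS, 3.31 and 2.81 FPKM in 5-FU).

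By annotation (GENCODE M21 on GRCm38), 53 of the 92 members were protein-coding genes. The others were 12 pseudogenes, 8 snoRNAs, 7 snRNAs, 7 antisense RNAs, 2 lincRNAs, and 1 each of miRNA, rRNA and processed transcript. A gene name rather than a model number was carried by 52. The mean over both 5-FU libraries ran from 3.09 to 32.1 FPKM with a median of 4.58 FPKM, and the PBS mean had a median of 0.425 FPKM. The lower 5-FU library lay between 3 and 5 FPKM for 56 members, between 5 and 10 FPKM for 26, and above that for 10. A larger group sat just under the rule, with 110 further near-silent rows whose lower 5-FU library was between 2 and 3 FPKM. Estimated reads reached 20 in each 5-FU library for 76 members, including all 53 coding genes but only 3 of the 17 small RNAs (snRNA, snoRNA, rRNA and miRNA). The 76 and the 3 rest on the uncertain size of 1 read in 5-FU, and a greater 5-FU depth could raise them.

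The highest member was the coding model 1700001P01Rik, chosen for mention after its values were seen, with 0.233 and 0.0385 FPKM in PBS replicates 1 and 2 and 31.2 and 32.9 FPKM in 5-FU replicates 1 and 2. Gp5 followed among named genes. It encodes glycoprotein V, a subunit of the platelet receptor for von Willebrand factor, and lay on chromosome 16 from 30307685 to 30310779 on the minus strand. Its level was 0.0441 and 0.0109 FPKM in PBS against 17.3 and 18.1 FPKM in 5-FU. Estimated reads were about 4 and 1 in PBS and about 792 and 819 in 5-FU, in units that may differ between the groups. The 2 treated libraries agreed closely for this gene, and both controls were near the limit of detection. Mss51, a mitochondrial protein enriched in skeletal muscle, had 1.08 and 0.342 FPKM in PBS and 15.3 and 15.7 FPKM in 5-FU. Guca2a, encoding the intestinal peptide hormone guanylin, was listed at 0.0407 and 0 FPKM in PBS and at 14.1 and 14.5 FPKM in 5-FU. The rule itself places the treated libraries of every member above its control libraries, and for these genes the gap was far wider than it requires.

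**Figure D1:**
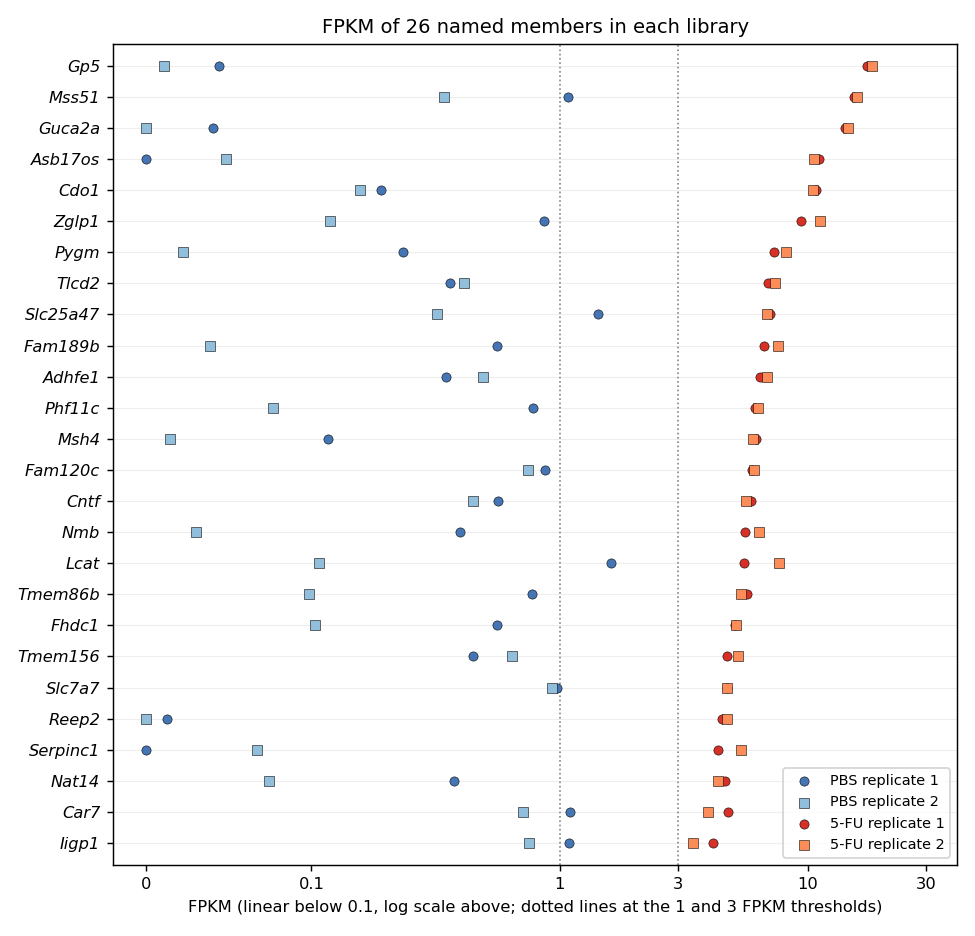
FPKM of 26 named members, in each of the 4 libraries (blue, PBS replicates 1 and 2; red and orange, 5-FU replicates 1 and 2), on an axis that is linear below 0.1 FPKM and logarithmic above, with dotted lines at the 1 and 3 FPKM thresholds. The 5-FU points of a gene lie close together, from 3.45 FPKM (Iigp1) to 18.1 FPKM (Gp5), while PBS replicate 1 often lies to the right of PBS replicate 2.

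The RefSeq promoter table (GRCm38.p6, 250 bases before to 50 after each start) held windows for 40 of the 92 members, 51 windows in all. Windows of 5 members are printed because CpG content differed between members and genes that MC38 expresses. Each is written 5′ to 3′ along the gene's strand, with every CG in capitals. Gp5 (chr16:30310732-30311031, minus strand) and Mss51 (chr14:20496852-20497151, minus strand) hold none, and Guca2a (chr4:119637482-119637781, plus strand) holds 1. Zglp1 (chr9:21067044-21067343, minus strand) holds 17 and Rasl11b (chr5:74195076-74195375, plus strand) holds 37.
Gp5: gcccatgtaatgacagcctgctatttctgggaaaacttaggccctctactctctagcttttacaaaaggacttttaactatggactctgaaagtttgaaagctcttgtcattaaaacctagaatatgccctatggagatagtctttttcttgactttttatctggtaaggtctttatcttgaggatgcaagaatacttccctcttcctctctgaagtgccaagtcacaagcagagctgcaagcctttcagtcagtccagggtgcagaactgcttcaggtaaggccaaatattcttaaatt
Mss51: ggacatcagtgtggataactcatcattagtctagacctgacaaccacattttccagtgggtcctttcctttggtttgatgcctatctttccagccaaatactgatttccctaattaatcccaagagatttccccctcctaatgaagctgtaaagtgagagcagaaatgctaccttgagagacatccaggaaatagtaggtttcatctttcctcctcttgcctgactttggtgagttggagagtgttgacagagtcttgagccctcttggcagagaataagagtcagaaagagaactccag
Guca2a: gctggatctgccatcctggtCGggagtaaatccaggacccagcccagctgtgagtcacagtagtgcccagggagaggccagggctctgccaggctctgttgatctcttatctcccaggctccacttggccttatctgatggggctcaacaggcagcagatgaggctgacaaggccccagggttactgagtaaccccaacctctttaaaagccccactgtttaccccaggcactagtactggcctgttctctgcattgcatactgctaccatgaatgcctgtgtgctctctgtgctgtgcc
Zglp1: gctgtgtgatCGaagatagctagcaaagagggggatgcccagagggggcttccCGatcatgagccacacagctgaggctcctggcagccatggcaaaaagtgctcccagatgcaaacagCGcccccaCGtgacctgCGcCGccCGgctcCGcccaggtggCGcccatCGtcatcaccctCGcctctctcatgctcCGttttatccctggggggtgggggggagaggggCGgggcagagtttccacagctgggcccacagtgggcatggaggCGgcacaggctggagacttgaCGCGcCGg
Rasl11b: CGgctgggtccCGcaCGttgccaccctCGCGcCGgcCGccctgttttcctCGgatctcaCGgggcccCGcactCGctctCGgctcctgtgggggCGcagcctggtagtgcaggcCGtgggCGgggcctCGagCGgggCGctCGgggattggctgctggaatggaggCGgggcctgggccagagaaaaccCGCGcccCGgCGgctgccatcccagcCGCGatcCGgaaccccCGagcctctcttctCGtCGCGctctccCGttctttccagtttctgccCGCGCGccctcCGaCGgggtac

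Over the 51 windows of members the median ratio of observed to expected CpG was 0.344, and 25.5% of them had a ratio of at least 0.6. Near-silent rows that were not members gave a similar picture, with a median of 0.286 and 23.0% at or above 0.6. Rows expressed in MC38 stood far higher, at a median of 0.778 and 73.4%. Genes of the opposite set, lost after 5-FU, also had CpG-rich windows, with a median of 0.758 and 67.0%. Members' windows thus resembled those of other silent genes more than those of expressed genes. Motifs were searched on both strands, and each share is given for members' windows, for windows of other near-silent rows and for all 22194 windows. GGGCGG was found in 41.2%, 28.7% and 46.1%, so members lay between the near-silent rows and the whole. The shares were 9.80%, 16.8% and 11.9% for TATAAA, 29.4%, 37.0% and 37.8% for CCAAT, and 7.84%, 5.80% and 7.97% for CACGTG. They were 7.84%, 9.15% and 7.07% for TGANTCA and 0, 1.41% and 2.27% for TGACGTCA. An interferon-stimulated response element was found in 1.96%, 3.63% and 3.38%, and the p53 half-site in 3.92%, 8.11% and 7.34%. No test was made of these shares. A match is only a match of letters, and these windows cover fewer than 1 in 2 members.

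Metabolic enzymes, carriers and transporters formed the largest role, with 14 members besides gene models. Cdo1, which oxidizes cysteine in the first step toward taurine, had 0.190 and 0.157 FPKM in PBS and 10.7 and 10.5 FPKM in 5-FU (chromosome 18, 46713193 to 46728395, minus strand). Pygm, the muscle form of glycogen phosphorylase, had 0.233 and 0.0224 FPKM in PBS and 7.33 and 8.15 FPKM in 5-FU. Adhfe1, a mitochondrial transhydrogenase that acts on gamma-hydroxybutyrate, had 0.349 and 0.491 FPKM in PBS and 6.41 and 6.85 FPKM in 5-FU. In each of these genes the treated libraries differed by far less than the gap between the groups. Tlcd2, a membrane protein linked to lipid composition, had 0.362 and 0.410 FPKM in PBS and 6.87 and 7.36 FPKM in 5-FU. Slc25a47, a mitochondrial carrier of the liver, had 1.42 and 0.320 FPKM in PBS and 7.06 and 6.82 FPKM in 5-FU. Lcat, the plasma enzyme that esterifies cholesterol in lipoproteins, had 1.60 and 0.107 FPKM in PBS and 5.51 and 7.62 FPKM in 5-FU. Slc25a47 and Lcat thus owed most of their PBS mean to replicate 1. Tmem86b, a lysoplasmalogenase, had 0.773 and 0.0985 FPKM in PBS and 5.67 and 5.37 FPKM in 5-FU. Slc7a7, a light chain of the y+L amino acid exchanger, had 0.971 and 0.931 FPKM in PBS and 4.71 FPKM in each 5-FU library. Nat14, an N-acetyltransferase family gene, had 0.375 and 0.0745 FPKM in PBS and 4.62 and 4.33 FPKM in 5-FU. In these 3 genes no PBS library reached 1 FPKM. Car7, a cytosolic carbonic anhydrase, had 1.10 and 0.713 FPKM in PBS and 4.75 and 3.94 FPKM in 5-FU. Rnasek, Ephx3 and Tm6sf2 completed the role.

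Secreted peptides, ligands and plasma proteins counted 6 members including Guca2a. Cntf, a neurotrophic cytokine, had 0.564 and 0.448 FPKM in PBS and 5.91 and 5.65 FPKM in 5-FU. Nmb, the bombesin-like peptide neuromedin B, had 0.397 and 0.0303 FPKM in PBS and 5.57 and 6.36 FPKM in 5-FU. Serpinc1, which encodes the clotting inhibitor antithrombin, was listed at 0 and 0.0668 FPKM in PBS and 4.34 and 5.40 FPKM in 5-FU. Their usual sources are as different as peripheral nerve glia, the nervous system and the liver. The chemokine gene Ccl4 and the ephrin gene Efnb3 were the other two members of this role.

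Among 7 membrane receptors and glycoproteins, Gp5 was the highest. Fam189b had 0.560 and 0.0388 FPKM in PBS and 6.68 and 7.58 FPKM in 5-FU. Tmem156 had 0.448 and 0.640 FPKM in PBS and 4.72 and 5.22 FPKM in 5-FU. Reep2, which shapes endoplasmic reticulum membranes and is typical of neurons, had 0.0126 and 0 FPKM in PBS and 4.51 and 4.73 FPKM in 5-FU. Estimated reads of Reep2 were about 1 and 0 in PBS and 181 and 188 in 5-FU, again in units that may differ. Upk1a (a uroplakin of bladder epithelium), Ctxn1 and Tnfrsf4 (the T cell costimulator OX40) were the others, with lower treated libraries down to 3.09 FPKM.

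Germ cell and testis genes counted 7. Zglp1, a GATA-like zinc finger protein needed for germ cell differentiation, had 0.862 and 0.119 FPKM in PBS and 9.41 and 11.1 FPKM in 5-FU. Msh4, a MutS homologue that acts in meiotic crossing-over, had 0.116 and 0.0144 FPKM in PBS and 6.18 and 5.99 FPKM in 5-FU. Msh4 rested on 886 and 853 estimated reads in the treated libraries, among the highest read numbers of any member. Asb17, Tsx, Amh (anti-Müllerian hormone), Proca1 and Pnldc1 (the exonuclease that trims piRNAs) were the others, and in all 7 PBS replicate 1 exceeded PBS replicate 2. Asb17os, an RNA annotated antisense to Asb17, was listed at 0 and 0.0484 FPKM in PBS and 11.0 and 10.6 FPKM in 5-FU.

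Genes known from immune cells counted 4. Phf11c, of a PHD finger family, had 0.783 and 0.0764 FPKM in PBS and 6.14 and 6.28 FPKM in 5-FU. Iigp1, an immunity-related GTPase made after interferon, had 1.09 and 0.755 FPKM in PBS and 4.15 and 3.45 FPKM in 5-FU, a smaller distance between groups than for Phf11c. Phf11b was also in this role.

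The remaining named coding members held 2 transcription factor genes and 9 genes of the cytoskeleton, signalling and other roles. Fam120c had 0.872 and 0.743 FPKM in PBS and 5.97 and 6.04 FPKM in 5-FU. Fhdc1, a formin that links actin and microtubules, had 0.557 and 0.103 FPKM in PBS and 5.06 and 5.15 FPKM in 5-FU. The others in that role were Ccdc28b, Bex2, Anxa8, Cryba1 (a lens crystallin), Tagln3, Rasl11b and Fam24b, with lower treated libraries from 3.60 FPKM. Egr1, an immediate early transcription factor, and Hoxb5 were the transcription factor genes, and both lay near the rule's lower edge.

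Position beside an expressed gene was not used by the rule, and it differed between the members and other near-silent genes. An expressed gene is one with a mean of at least 1 FPKM over the 4 libraries that is not itself a member. Of the 92 members, 24 (26.1%) started within 5 kb after the end of an expressed gene on the same strand without overlapping any expressed gene, against 633 of the 24067 other near-silent rows (2.63%) and 12 of the 160 genes of the opposite set (7.5%). Counting only neighbours with a PBS mean of at least 1 FPKM, a choice made after seeing the data, gave 25 members (27.2%) and 623 other near-silent rows (2.59%). Under the first definition another 12 members (13.0%) overlapped an expressed gene on the same strand and 18 (19.6%) on the other strand, against 5.21% and 10.3% of other near-silent rows. Only 30 members (32.6%) had none of the listed positions, against 77.0% of other near-silent rows and 58.1% of the opposite set. Read the other way, 24 of 657 near-silent rows in the first position became members (3.65%) and 30 of 18551 with no such neighbour did (0.162%). No test was made of these shares, since genes are not replicates.

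**Figure D2:**
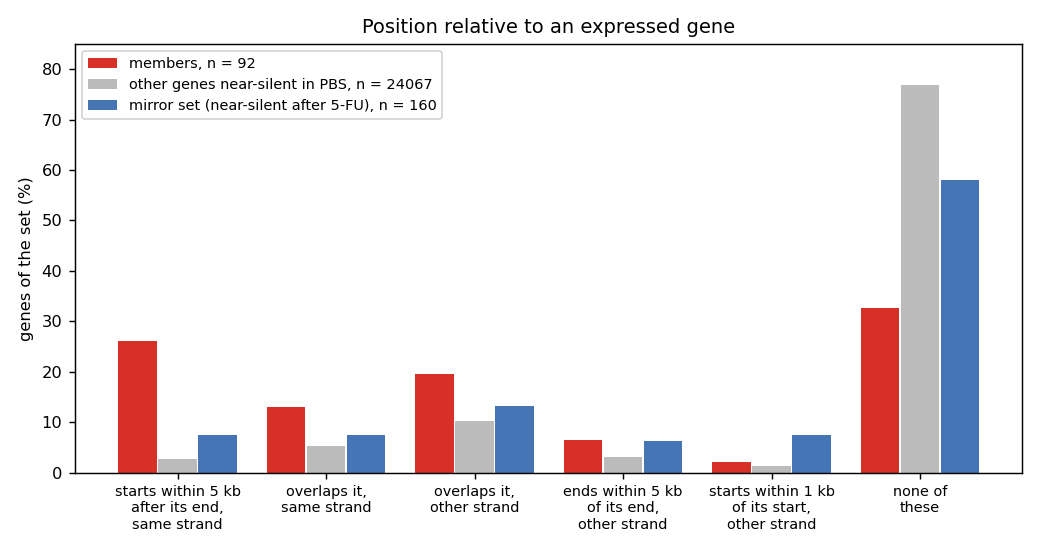
Share of genes (%) in each position relative to an expressed gene, for the 92 members, the 24067 other genes near-silent in PBS and the 160 genes near-silent after 5-FU. The first group of bars, genes that start within 5 kb after an expressed gene on the same strand, stands at 26.1% for members, 2.63% for other near-silent genes and 7.5% for the opposite set.

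Coding genes can be read alone. Of 53 coding members, 20 (37.7%) held the first position, against 4.33% of other near-silent coding genes. When overlaps with a further gene were ignored, 24 of the 53 (45.3%) started within 5 kb and 32 (60.4%) within 10 kb of the end of an expressed gene upstream on the same strand. The corresponding shares were 5.08% and 8.32% among near-silent coding genes that were not members. Over members of all types the shares were 34.8% within 5 kb and 46.7% within 10 kb, against 3.28% and 5.68%. Coding members were also compact, with a median span of 6.88 kb against 12.4 kb for other near-silent coding genes.

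Many of the highest members had such a neighbour. Gp5 started 1644 bases after Atp13a3, Mss51 2463 bases after Ppp3cb, Cdo1 1749 bases after Atg12 and 1700001P01Rik 1609 bases after the ribosomal protein gene Rpl23. Zglp1 started 427 bases after Fdx1l, Fam189b 378 after Scamp3, Adhfe1 493 after Rrs1, Msh4 1149 after Rabggtb, Reep2 1929 after Kdm3b, Tmem86b 73 after Ppp6r1 and Nat14 26 after Zfp628. Over the 24 members the distance ran from 26 to 4014 bases with a median of 848, against a median of 2308 bases for the 633 other near-silent genes in that position. Their upstream genes were also more highly expressed, at a median of 21.9 FPKM in PBS and 19.9 FPKM in 5-FU against 10.2 and 8.20 FPKM. Other members lay somewhat farther downstream, among them Pygm at 6.37 kb after Sf1, Guca2a at 8.59 kb after Foxj3 and Phf11c at 6.63 kb after Setdb2. Lcat, which also overlaps a gene model on the other strand, started 0.208 kb after Slc12a4.

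The members' levels did not follow those of their neighbours in a fixed proportion. In 5-FU, Gp5 stood at 72.8% of the FPKM of Atp13a3, against 0.0699% in PBS. Mss51 reached 214% of Ppp3cb and Cdo1 102% of Atg12 in 5-FU. By contrast Zglp1 stood at 19.5% of Fdx1l, 1700001P01Rik at 6.43% of Rpl23 and Msh4 at 1.47% of Rabggtb. Across the 24 pairs the treated share therefore ran from about 1% (Upk1a, 1.02% of Cox6b1) to above the neighbour's own level in 5 pairs.

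**Figure D3:**
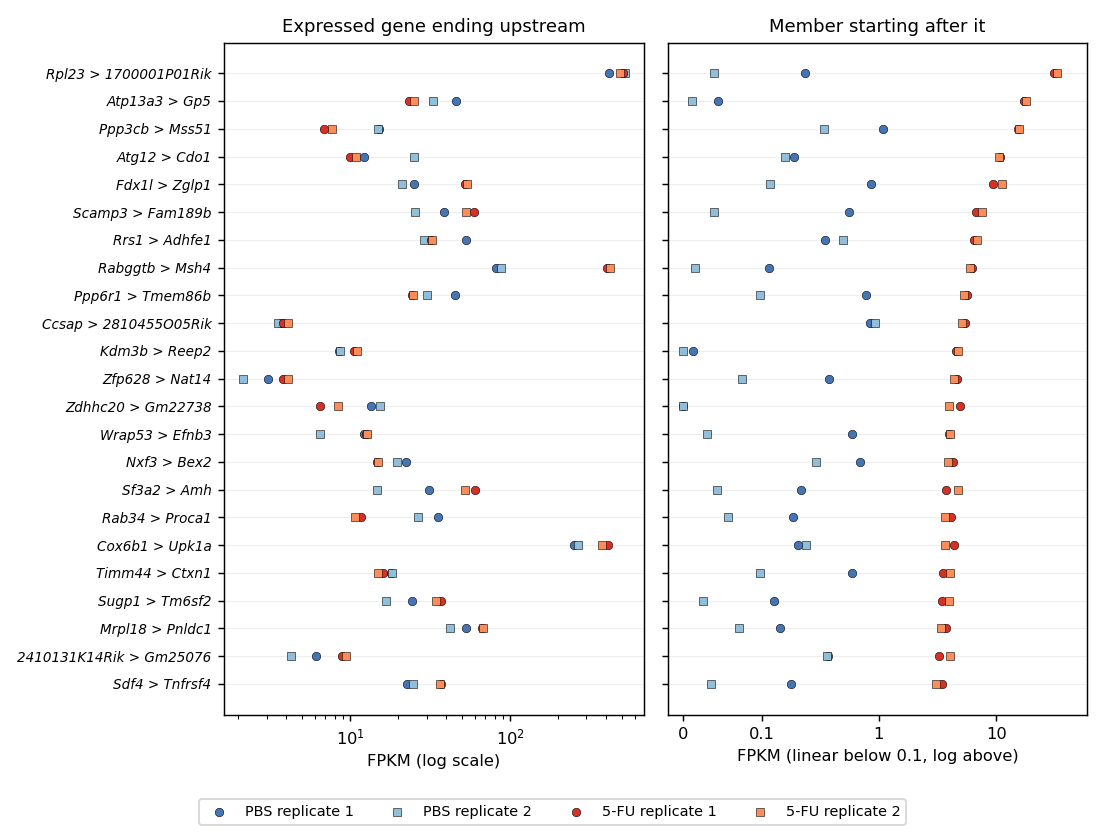
FPKM in each library of expressed upstream genes (left, logarithmic axis) and of the members that start after them (right, linear below 0.1 FPKM and logarithmic above), 1 pair per row for 23 of the 24 pairs. On the left the PBS and 5-FU points shift in either direction, whereas on the right every 5-FU point lies at 3 FPKM or more, as the rule requires.

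The upstream genes themselves were tested, because the rule did not use them. They counted as expressed by a mean over all 4 libraries, so a gene low in PBS could enter through its 5-FU libraries. That definition favours higher values in 5-FU for such a gene. Of the 24, 9 were higher and 5 lower in 5-FU by limma with Benjamini-Hochberg adjustment, and 10 did not pass. Over all 11644 genes tested, 22.1% were higher and 31.2% lower (53.3% in all). The median log2 difference of the 24 was 0.38, against -0.10 over all genes. Members thus lay after genes that rose and after genes that fell. Rabggtb, a subunit of the enzyme that attaches lipid anchors to Rab proteins, had 81.2 and 87.9 FPKM in PBS and 403 and 423 FPKM in 5-FU (log2 difference 2.28, SE 0.108, limma adjusted p = 0.0027). Fdx1l, a mitochondrial ferredoxin, had 25 and 21.2 FPKM in PBS and 52.0 and 53.5 FPKM in 5-FU (log2 difference 1.16, SE 0.126, limma adjusted p = 0.00413). Scamp3 was also among the 9 that rose (log2 difference 0.81, SE 0.225, limma adjusted p = 0.0368). In these 3 pairs the upstream gene and the member were both higher after 5-FU. In the other direction, Ppp3cb, a catalytic subunit of calcineurin, had 15.1 and 14.9 FPKM in PBS and 6.85 and 7.65 FPKM in 5-FU (log2 difference -0.96, SE 0.124, limma adjusted p = 0.0055). Atp13a3, a polyamine-transporting ATPase, had 46.0 and 32.8 FPKM in PBS and 23.4 and 25.1 FPKM in 5-FU (log2 difference -0.66, SE 0.189, limma adjusted p = 0.0409). Here the members, Mss51 and Gp5, stood higher after 5-FU while the upstream genes fell. The neighbours of Cdo1, Adhfe1, Tmem86b, Reep2 and Nat14 did not pass, with log2 differences of -0.71 for Atg12, -0.28 for Rrs1, -0.57 for Ppp6r1, 0.30 for Kdm3b and 0.47 for Zfp628. The counts depended on which library was kept: without PBS replicate 1 or 2 they were 13 higher and 8 lower or 12 and 9, and without 5-FU replicate 1 or 2 they were 2 and 1 or 3 and 1. With no filter on low values they were 4 and 3. A poly(A) signal (AATAAA or ATTAAA) in the last 50 bases of an annotated transcript was present in 20 of the 24 (83.3%). That is close to the 86.7% of 10192 coding genes with a mean of at least 1 FPKM, members and the 24 included.

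At some loci several members lay in a row. Downstream of Rabggtb on the minus strand of chromosome 3 came Msh4 (153857149 to 153906138) and then Asb17os (153836902 to 153852424), which starts 4725 bases after the end of Msh4. Asb17 overlaps Asb17os on the plus strand and, chosen for mention after its values were seen, had 0.0947 and 0 FPKM in PBS and 4.29 and 4.86 FPKM in 5-FU. The table does not say whether reads were assigned by strand, so reads of Asb17 and Asb17os cannot be told apart. On chromosome 18, Reep2 follows Kdm3b and Egr1 follows Reep2 at 12360 bases, all on the plus strand. Egr1, also mentioned after its values were seen, had 1.06 and 0.167 FPKM in PBS and 3.91 and 3.22 FPKM in 5-FU. These members share a stretch of chromosome and may not be independent observations. Whether they share RNA was not tested.

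Members that overlap another expressed gene are uncertain for the same reason. Cntf overlaps Zfp91, Nmb overlaps Sec11a, Tlcd2 overlaps Mir22hg and Slc25a47 overlaps Mir345 on the same strand. Slc7a7 overlaps Oxa1l, Lcat overlaps Gm16156, Serpinc1 overlaps Zbtb37 and Fam120c overlaps Gm6451 on the other strand. Of these neighbours, Mir345 (PBS mean 0.376 FPKM, 5-FU mean 3.27 FPKM) and Gm16156 (0.661 and 2.71 FPKM) were themselves below 1 FPKM in PBS and count as expressed only through the 5-FU libraries. Car7 starts 52 bases from the start of Nae1 in divergent orientation. Reads in the shared or abutting stretches could have been counted for either gene, and whether the members' reads came from their own start sites was not tested.

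The 24067 near-silent rows that were not members allowed the same positions to be read in genes that the 5-FU threshold had not picked, although they are what the rule left over. Of the 11912 with a value above 0, 29.6% had both 5-FU libraries above both PBS libraries and 14.7% had both below. Among the 566 that started within 5 kb after an expressed gene on the same strand, the shares were 53.2% above and 10.2% below. Genes ending within 5 kb of an expressed gene's end on the other strand gave 49.2% above (628 genes). Genes starting within 1 kb of an expressed gene's start on the other strand gave 24.9% above and 33.0% below. Their levels stayed low, with a median of 0.193 FPKM in 5-FU against 0.0408 FPKM in PBS for the first group. Rows picked for a low PBS level lean by that choice toward 5-FU above PBS, so each position is read beside the 29.6%. The 11644 tested rows, which had no upper limit in PBS, gave 35.9% above and 45.1% below and are not a like comparison.

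**Figure D4:**
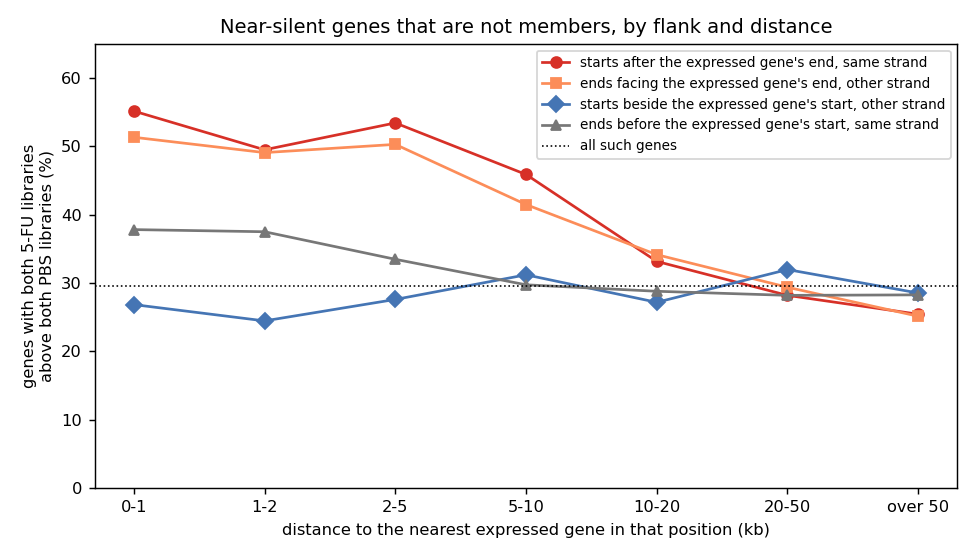
Share (%) of near-silent genes that are not members with both 5-FU libraries above both PBS libraries. It is shown by distance (kb) to the nearest expressed gene in each of 4 positions. Genes that overlap an expressed gene are left out of these curves. The dotted line includes them and marks 29.6% over all near-silent genes that are not members and have a value above 0. The lines for genes after or facing an expressed gene's end start at 55.2% and 51.3% and fall to about 25% beyond 50 kb, while the line for genes beside its start stays between 24.4% and 32.0%.

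Among genes that overlapped no expressed gene, the share fell with distance. For genes that start after an expressed gene's end it was 55.2% within 1 kb, 49.5% from 1 to 2 kb, 53.4% from 2 to 5 kb, 45.9% from 5 to 10 kb, 33.2% from 10 to 20 kb and 25.4% beyond 50 kb. Genes whose end faces the end of an expressed gene followed a similar course, from 51.3% to 25.1%. Genes that end before an expressed gene's start on the same strand began lower, at 37.8%, and reached 28.3%. The plot of shares by flank and distance shows the 2 end-side curves above the 2 start-side curves up to 20 kb. The bins from 0 to 1, 1 to 2, 2 to 5 and 5 to 10 kb after an end held 12, 9, 3 and 10 members, or 7.02%, 6.87%, 0.845% and 2.14% of the near-silent genes there. Higher-than-control values were therefore frequent on the end side of expressed genes also among near-silent genes that did not meet the rule's 5-FU threshold.

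Of the 17 small RNA members, 7 are snRNAs, and these had few reads. Gm22107 and Gm25713, chosen for mention after their values were seen, serve as examples. Gm22107, which lies inside Myh9, had 1.45 and 0 FPKM in PBS and 10.1 and 13.6 FPKM in 5-FU, or about 6, 0, 21 and 28 estimated reads in that library order. Gm25713, which overlaps Zfr on the other strand, had no value above 0 in PBS, and 5-FU gave 7.49 and 4.89 FPKM, or about 17 and 11 reads. These estimated reads are in units that may differ between the groups. Short transcripts turn few reads into several FPKM, and snRNA families have many near-identical copies that share reads. The members of this kind are therefore uncertain, both in their identity and in their level.

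The single miRNA member was Mir3098, a hairpin gene overlapping Mrpl51 on the same strand. It had about 1 estimated read in each PBS library and about 8 and 6 in 5-FU, in units that may differ. Its mature products (RefSeq, GRCm38.p6, chr6:125195807-125195828 and chr6:125195845-125195865, plus strand) are shown with the seed, bases 2 to 8, in capitals. Reads on this row may belong to Mrpl51 transcripts, and the library preparation was not one for small RNA.
miR-3098-5p: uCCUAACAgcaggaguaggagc
miR-3098-3p: uUCUGCUGccugccuuuagga

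Of the 12 pseudogenes, 10 are processed copies with a single exon. Their PBS means reached 0.961 FPKM and their treated means ran from 3.09 to 11.1 FPKM. Such copies share sequence with a parent gene, so their reads may come from it. The 10 antisense and other long noncoding members ran from 3.13 to 10.8 FPKM in 5-FU, with Asb17os highest.

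Most other genes of the tissues these members are known from stayed near-silent. Of 28 gut secretory and hormone genes measured, 26 were near-silent in PBS and Guca2a was the only member, while no other near-silent gene of that list exceeded a mean of 0.337 FPKM in 5-FU. Of 14 platelet and megakaryocyte genes, all near-silent in PBS, Gp5 was the only member. Ppbp came next at 1.82 and 2.11 FPKM in 5-FU. Of 29 striated muscle genes, 26 were near-silent and Mss51 was the only member, with Acta1 next at 2.35 and 2.33 FPKM in 5-FU. Of 13 genes of sulfur amino acid and taurine metabolism, Cdo1 was the only member, and 3 of the 6 others tested were lower in 5-FU and 1 higher by limma, against 31.2% and 22.1% over all genes. Of those tested, Gnmt (0.241 and 0.0199 FPKM in PBS, 1.59 and 1.49 FPKM in 5-FU) entered only because its 5-FU libraries reached 1 FPKM. That choice favours a higher call. Csad, which acts after Cdo1 on the way to taurine, had 4.45 and 4.3 FPKM in PBS and 0.806 and 0.814 FPKM in 5-FU. Of 39 interferon-stimulated and immune GTPase genes only 10 were near-silent in PBS, and Iigp1 was the only member. Among the other genes of that list 33 were tested, and limma called 21 higher in 5-FU, against the 22.1% over all genes. Mx1, Gbp9, Tgtp1 and Gbp4, with PBS means under 1 FPKM, were tested only because their 5-FU libraries reached 1 FPKM. Higher calls for these genes are favoured by that choice.

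Lists with no member were the neuronal (32 measured, 26 near-silent), germ cell and testis (32 and 31), early embryo (18 and 16), photoreceptor (20 and 20), cytokine and interferon (26 and 21) and p53 target lists (29 and 4). The neuronal gene Gng3 missed the rule by its PBS level, with 1.57 and 0.721 FPKM in PBS and 18.4 and 19.0 FPKM in 5-FU. Among other near-silent genes of these lists the highest treated means were 2.62 FPKM for Gnat2, 2.22 FPKM for Il6 and 1.63 FPKM for Csf2. The germ cell members named above were not on the germ cell list. By limma, 2 of 6 neuronal, 1 of 2 germ cell, 1 of 2 early embryo, the 1 photoreceptor, 3 of 6 cytokine and 7 of 25 p53 target genes tested were higher in 5-FU. A gene with a PBS mean under 1 FPKM was tested only if a 5-FU library reached 1 FPKM. That choice favours higher calls for such genes, and their calls are not a like comparison with the background. Among them were Acrv1 (0.110 and 0 FPKM in PBS, 1.05 and 1.06 FPKM in 5-FU), Gnat2, Il6 and Csf2. Lower calls were made in 3 neuronal and 8 p53 target genes. Over all tested genes 22.1% were higher and 31.2% lower, so the p53 target list lay near the background in both directions.

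The PBS libraries were not equal for the members. PBS replicate 1 was higher than replicate 2 in 67 members, lower in 19 and equal in 6. The summed level of the 92 was 50.6 FPKM in PBS replicate 1 and 31.1 FPKM in replicate 2, against 538 and 586 FPKM in the 5-FU libraries. Of the 24 members after an expressed gene, 20 were higher in PBS replicate 1. Among the 24067 other near-silent rows 22.6% were higher in replicate 1 and 18.1% in replicate 2, while 14265 rows were equal. Both these and the tested rows (57.3% and 42.4%) leaned less toward replicate 1 than the members. Pearson's r over tested genes was 0.968 between the PBS libraries and 0.996 between the 5-FU libraries. The part of this difference between control libraries in the results was not tested, and with PBS replicate 1 left out 125 rows met the rule, 86 of them members.

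Just inside the PBS threshold were Gm13563 (PBS mean 0.992 FPKM), Gm15956 (0.984 FPKM) and Rnasek (0.968 FPKM), and just outside it Gnrh1 (1.04 FPKM), Npff (1.07 FPKM) and Apoe (1.07 FPKM). Each of the 3 outside held less than 0.3 FPKM in PBS replicate 2 and more than 1.8 FPKM in replicate 1. Just inside the 5-FU threshold were Hoxb5 (lower treated library 3.02 FPKM), Gm12783 (3.02 FPKM) and Gm22027 (3.02 FPKM), and just outside it Mir1967 (2.93 FPKM), Fxyd4 (2.92 FPKM) and AA986860 (2.92 FPKM).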

How the data were processed

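The authors deposited 1 table of FPKM values for 36445 genes in 4 libraries. Reads were processed with STAR 2.4.1a and Picard 2.9.0 on GRCm38, per the submitters' processing notes. The counting program, the annotation and any use of strand were not given in the sources used here. Gene IDs were matched to GENCODE M21 (36295 found, 150 not), which gave positions and lengths. Depth was estimated from FPKM steps. Between 52.5% and 58.6% of values below 100 reads lay within 0.02 of a whole read, so reads are estimates. Their error is not counting error alone, since the annotation behind the FPKM values was not given.

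Groups were compared with limma 3.58.1 (R 4.3.3, intensity trend) on log2(FPKM + 1), over rows of at least 1 FPKM in at least 2 libraries, two-sided, at a Benjamini-Hochberg adjusted p under 0.05. Log2 differences understate the change of low genes. Members carry no test. The rule for members given in full took the 25 named members highest in their lower 5-FU library, members on a gene list, and the 3 highest named members of each position class, 27 in all, with the upstream neighbours of these. Some items, 1 of the 27 among them, are not reported here. Members and lists were chosen with earlier results of these data known. Positions and sequences were handled in Python 3.11.15. Same-numbered PBS and 5-FU libraries did not deviate together (r = -0.01), so they were not paired. Alternatives are in the closing section.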

Additional observations from a re-analysis of the deposited data

How the results depend on the processing

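The number of members followed the thresholds. A PBS mean under 0.5 FPKM left 54, a 5-FU threshold of 2 FPKM gave 202 and one of 5 FPKM gave 36. Leaving out a library gave 80 to 134 rows, and quantile normalization, which holds all 92, gave 136. Members that start after or overlap an expressed gene numbered 54, or 31 among coding members alone (an alternative added after seeing the data, with fewer genes by construction), and 48 to 73 when a library was left out. Those that start within 5 kb after an expressed gene numbered 24, and 23 to 34 when a library was left out. Of their upstream genes 9 were higher and 5 lower by limma. Without a filter on low values these counts were 4 and 3, and without single libraries they ran from 2 to 13 and from 1 to 9. Over all tested genes limma called 2578 higher and 3628 lower. A mean of at least 5 FPKM left 2158 lower among fewer genes tested, and leaving out a library gave 481 to 4428 higher and 1311 to 4624 lower, with the low counts when a 5-FU library was absent. The cause was not tested, and these fits take the lone library left to vary as the other pair does. With the replicate number as a block the calls were 2484 higher and 3553 lower over all genes and 9 and 6 among the upstream genes. Quantile normalization moved the median log2 difference of all genes from -0.10 to 0.03 and gave 2937 higher and 2813 lower. Small RNA members rest on too few reads for their levels to be ordered.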
